A study of Mus musculus with 30 samples.

Results

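The 10 genes described here are markers of the pyramidal neurons of 2 fields of the hippocampus, 5 for CA1 (Wfs1, Fibcd1, Mpped1, Pou3f1 and Man1a) and 5 for CA3 (Bok, Iyd, Ociad2, Nectin3 and Cdh24), out of 17477 genes counted. They were chosen by name as genes known to be enriched in 1 of the fields, with earlier results of these data already known. RNA was measured in whole hippocampus of 30 adult C57 BL/6J mice, each mouse being 1 library, after social isolation (SI) in single-housed cages or group housing (GH) from weaning onwards. There were 8 SI and 7 GH females (animals numbered 41 to 79) and 7 SI and 8 GH males (animals numbered 1 to 39). All 30 mice shared strain and tissue, and GH is the control. Which GH mice shared a cage is not given in the labels, so that p-values rest on the spread between mice as if each were independent.

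The pyramidal neurons of CA3 receive input from dentate granule cells through the mossy fibres, excite each other through recurrent collaterals and project to CA1 through the Schaffer collaterals. CA1 neurons in turn send the main output of the hippocampus to the subiculum and cortex. The fields differ in gene expression so sharply that single transcripts outline them in stained sections, but most such transcripts are enriched in a field and not confined to it. In RNA of whole hippocampus, fewer cells of a type and less RNA per cell cannot be told apart.

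Total counts ranged from 18809307 to 100844898 per mouse. In the males, the first principal component held 59.2% of the variance and set 3 SI males (animals 25, 33 and 39) apart, at 61.4 to 99.5 against -35.2 to 1.34 in the other 12 males. These 3 libraries had 18809307 to 25609585 counts and the other 4 SI males 19349259 to 58232296. Male estimates are therefore given with and without them.

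All 10 markers were detected in every mouse and passed the filter on low counts in both sexes. Levels between genes are compared only as CPM (counts scaled to library size) per kb of transcript, with lengths of 1 transcript a gene from another annotation than the authors' own. On that scale Mpped1, a predicted metallophosphoesterase, was the most abundant marker at 76.4 ± 13.1 CPM per kb (mean ± SD, n = 30). The order went on with Bok, a member of the Bcl-2 family of cell death regulators, at 65.8 ± 11.9 CPM per kb. Ociad2, a protein of mitochondrial membranes, followed at 49.5 ± 7.64 CPM per kb. These 3 stood above 90.4% or more of the 15270 genes with a level on this scale.

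A middle group of CA1 markers lay close together. Pou3f1, a POU-domain transcription factor, was at 36.3 ± 7.97 CPM per kb. Wfs1, the endoplasmic reticulum protein wolframin, was at 35.3 ± 7.51 CPM per kb. Fibcd1, a membrane receptor with a fibrinogen-like domain, was at 30.4 ± 5.56 CPM per kb. Neighbours in the order of these levels lay within 1 SD of each other, and Pou3f1 exceeded Wfs1 in only 11 of 30 mice although its mean was higher. Man1a, an enzyme that trims mannose from N-glycans in the Golgi, was lower at 9.40 ± 1.99 CPM per kb and lay below Fibcd1 in 30 of 30 mice.

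The remaining 3 were CA3 markers below the median of all genes on this scale, 6.35 CPM per kb. Cdh24, a type II cadherin of cell adhesion, was at 3.94 ± 0.672 CPM per kb. Nectin3, an adhesion molecule of the junctions between mossy fibres and CA3 dendrites, was at 3.32 ± 0.408 CPM per kb. Iyd, the iodotyrosine deiodinase known for recycling iodide in the thyroid, was the least abundant at 1.89 ± 0.424 CPM per kb. Cdh24 exceeded Nectin3 in 23 of 30 mice, and their means lay within the SD of Cdh24 but not within that of Nectin3.

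**Figure D1:**
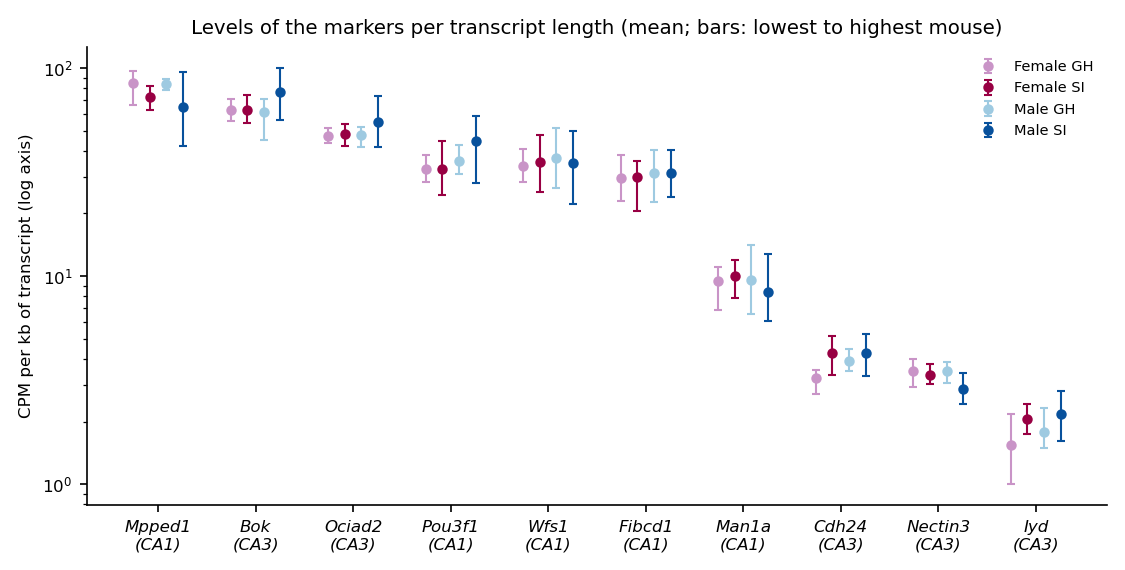
Levels of the 10 markers in CPM per kb of transcript on a log axis, in order of their mean over 30 mice. Points are group means and bars run from the lowest to the highest mouse of the group. Mpped1, Bok and Ociad2 lie highest, 4 further CA1 markers follow, and Cdh24, Nectin3 and Iyd lie lowest.

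The question put to the females was whether the markers of either field differed between SI and GH. Cdh24 was the only 1 of the 10 markers that was a differentially expressed gene (DEG), and it was higher in SI females. It lay at 321 (lowest), 401 (median) and 421 (highest) normalised counts in GH females and at 397, 482 and 615 in SI females. Normalised counts are counts scaled to a common library size. The groups overlapped in a single SI mouse, as 7 of 8 SI females lay above the highest GH female. The difference was 31.3% (Log2FC 0.39, SE 0.10, edgeR quasi-likelihood test with Benjamini-Hochberg adjustment, adjusted p = 0.0343). Among all genes, 624 of 16026 (3.89%) were DEGs in females, and the 1 call among 10 markers is read beside that share. At an unadjusted p under 0.05 there were 3 of the 10 markers (Cdh24, Iyd and Mpped1), beside 3245 of 16026 genes (20.2%).

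The call for Cdh24 depended on the model fitted and on single mice. In edgeR the adjusted p was 0.101 without surrogate variables, which are estimated unmeasured factors included as covariates. It was 0.12 with the position digit of the sample names as a factor in their place. The Log2FC was 0.41 and 0.47 in these 2 fits. Cdh24 was called in 9 of the 11 alternatives that kept all females. These included limma-voom with sample quality weights, also fitted without surrogate variables, at a Log2FC of 0.50. Left out in turn, 8 of the 15 females ended the call, with Cdh24 at an adjusted p of 0.079 without GH mouse 48, 0.0849 without 54, 0.0623 without 71, 0.0622 without SI mouse 45, 0.0619 without 49, 0.0562 without 63, 0.137 without 68 and 0.0657 without 73. The Log2FC stayed between 0.32 and 0.47 in these fits.

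Iyd was the other CA3 marker with a sizeable difference in females. It lay at 68.8, 99.97 and 150.4 normalised counts in GH females and at 120, 134 and 168 in SI females. There were 5 of 7 GH females below the lowest SI female and 3 of 8 SI females above the highest GH female. Its Log2FC of 0.40 was as large as that of Cdh24, but with a larger SE of 0.15 it did not pass (adjusted p = 0.137 in edgeR). Iyd was not called in any of the 15 fits with 1 mouse left out or the 11 other alternatives.

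Mpped1 was the CA1 marker with the smallest p in females. It lay at 9502, 11620 and 13890 normalised counts in GH females and at 9018, 10210 and 11750 in SI females. The groups overlapped, with 3 of 7 GH females above the highest SI female and 1 SI female below the lowest GH female. The Log2FC of -0.17 (SE 0.06) had an adjusted p of 0.0962 in edgeR. In DESeq2 Mpped1 was called (adjusted p = 0.0398), as it was after removal of trends with transcript length and GC content (edgeR, adjusted p = 0.047). RefSeq places lncRNA genes over Mpped1 (Gm52172 and Gm41370) and over Man1a (Gm16998), and whether reads were assigned by strand is not given in the sources used here.

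The other 7 markers differed by less than 0.08 on the log2 scale in females, with adjusted p-values of 0.566 or more in edgeR. Wfs1 was at 0.04, Fibcd1 at 0.01, Pou3f1 at -0.05 and Man1a at 0.07 among CA1 markers. Among CA3 markers Bok was at 0.01, Ociad2 at 0.04 and Nectin3 at -0.04. The 5 CA1 markers had a median Log2FC of 0.01 and the 5 CA3 markers one of 0.04, beside 0.01 over all genes tested. None of the 10 markers had normalised counts in SI and GH females that did not overlap, which was so for 48 genes (0.300%).

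Promoter sequences of the 3 markers with an unadjusted p under 0.05 in females are shown, each covering 250 bases before and 50 bases after a RefSeq start site (GRCm38.p6, sense strand of the gene). Capitals mark letters that match 1 of 3 motifs, each searched on both strands, and none of the matches overlap. The GC box bound by Sp factors was searched as GGGCGG. The TATA box of core promoters was searched as TATAAA. The E box of a type bound by basic helix-loop-helix factors was searched as CATCTG. The windows are chr14:54641315-54641614 (minus strand) for Cdh24, chr10:3540024-3540323 (plus strand) for Iyd and chr15:83779773-83780072 (plus strand) for the first listed start of Mpped1.
Cdh24: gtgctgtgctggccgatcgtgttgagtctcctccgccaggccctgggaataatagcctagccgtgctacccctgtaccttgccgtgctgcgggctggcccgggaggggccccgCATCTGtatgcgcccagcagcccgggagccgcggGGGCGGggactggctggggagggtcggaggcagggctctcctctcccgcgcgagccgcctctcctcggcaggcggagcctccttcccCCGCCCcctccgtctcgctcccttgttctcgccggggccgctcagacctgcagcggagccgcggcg
Iyd: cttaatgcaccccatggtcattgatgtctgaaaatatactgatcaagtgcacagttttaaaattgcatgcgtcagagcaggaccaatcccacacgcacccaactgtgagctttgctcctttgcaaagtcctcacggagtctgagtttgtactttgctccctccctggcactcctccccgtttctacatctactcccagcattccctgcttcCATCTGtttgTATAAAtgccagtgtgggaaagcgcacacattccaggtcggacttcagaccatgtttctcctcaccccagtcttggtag
Mpped1: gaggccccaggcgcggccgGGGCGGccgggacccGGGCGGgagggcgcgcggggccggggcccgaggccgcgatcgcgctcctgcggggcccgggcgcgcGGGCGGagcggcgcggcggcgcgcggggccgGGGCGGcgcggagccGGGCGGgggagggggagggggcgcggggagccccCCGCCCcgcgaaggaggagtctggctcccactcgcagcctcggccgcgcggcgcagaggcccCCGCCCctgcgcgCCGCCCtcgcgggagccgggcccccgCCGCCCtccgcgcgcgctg

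These promoters were not alike. That of Cdh24 held 30 CpG dinucleotides, 2 GC boxes and 1 E box, that of Iyd 6 CpG, no GC box, 1 TATA box and 1 E box, and that of Mpped1 59 CpG and 9 GC boxes. The median over the 32851 promoters of the table was 7 CpG. A GC box was found in 35.7% of all promoters, a TATA box in 13.6% and an E box in 17.2%. The table held promoters of 9 of the 10 markers, not of Pou3f1. A further start of Mpped1 had 3 CpG and no GC box. Wfs1, Fibcd1, Man1a and Nectin3 had 30 to 46 CpG and 2 to 5 GC boxes, while Bok had 16 CpG with 1 GC box and Ociad2 11 CpG with 1 TATA box. No promoter of a marker held the octamer bound by POU-domain factors (ATGCAAAT, both strands), which occurred in 1.7% of all promoters.

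**Figure D2:**
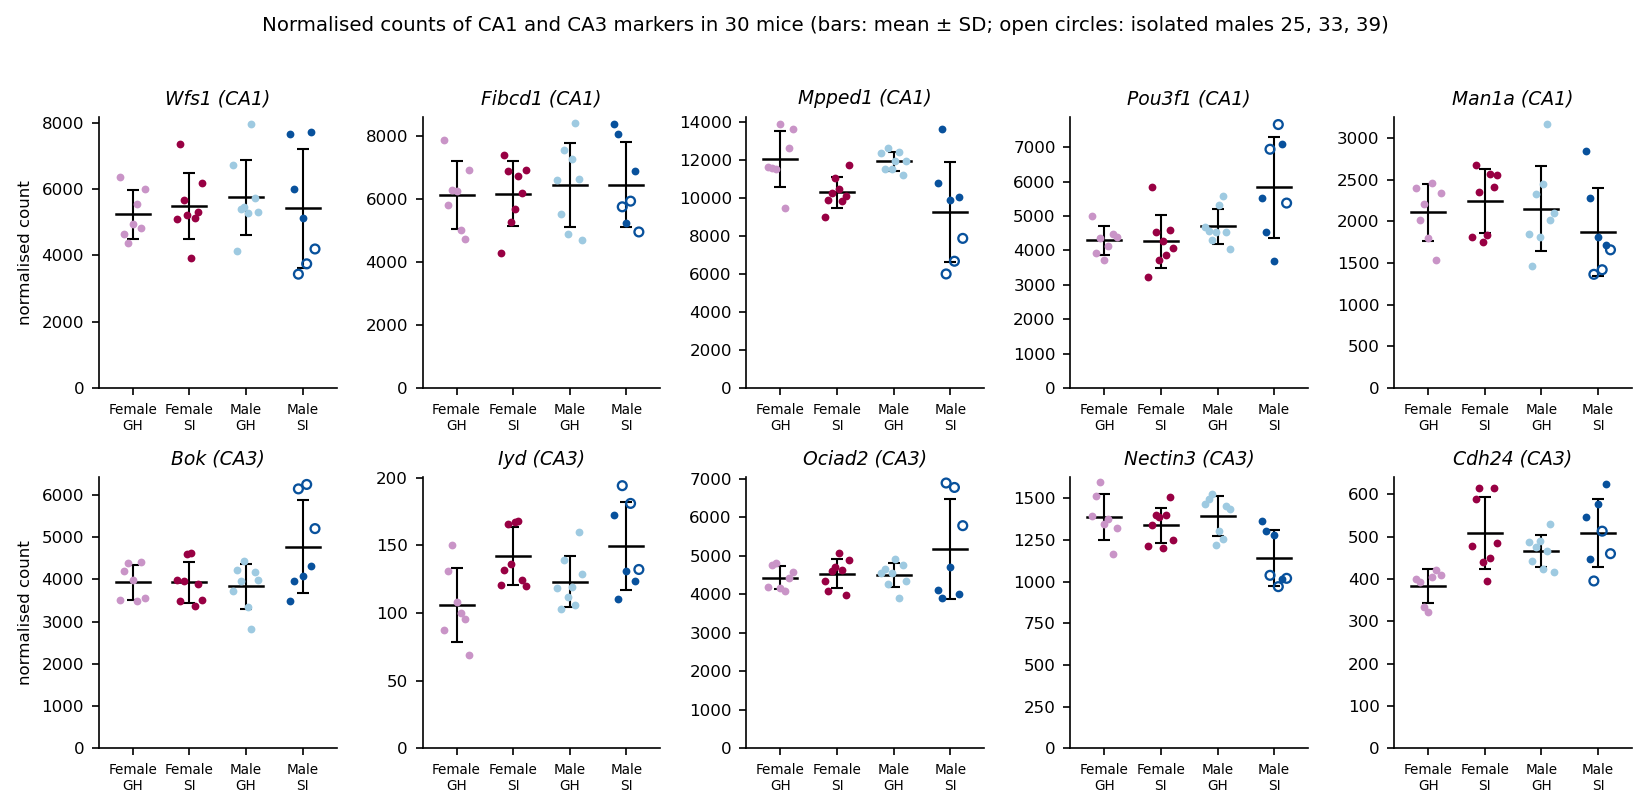
Normalised counts of each marker in the 30 mice by sex and housing. Each point is 1 mouse, lines and bars are mean ± SD, and open circles are SI males 25, 33 and 39. Cdh24 shows 7 of 8 SI females above all GH females, and the open circles hold the highest Bok and Ociad2 and the lowest Mpped1 of the males.

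In the males the same comparison gave no DEG among the 10 markers. Over all 15833 genes tested 0 (0%) were DEGs in edgeR, with 2060 (13.0%) at an unadjusted p under 0.05, while 24 genes passed in DESeq2, none of them a marker. The 5 CA1 markers had a median Log2FC of 0.11 and the 5 CA3 markers one of 0.05, beside -0.0020 over all genes. Among the markers 4 unadjusted p-values were under 0.05.

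Nectin3 had the smallest p of the markers in males. It lay at 1216, 1442 and 1527 normalised counts in GH males and at 969, 1037 and 1360 in SI males. There were 4 of 7 SI males below the lowest GH male and 5 of 8 GH males above the highest SI male. The Log2FC was -0.24 (SE 0.07, adjusted p = 0.295 in edgeR). SI males 25, 33 and 39 all lay below the lowest GH male, and the other 4 SI males had 1239 ± 154 normalised counts (mean ± SD) against 1393 ± 118 in GH males. Without the 3 mice the Log2FC was -0.18.

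Mpped1 had an estimate below 0 in males as in females. It lay at 11210, 11970 and 12620 normalised counts in GH males and at 6009, 9899 and 13630 in SI males. In 6 of 7 SI males it was below the lowest GH male, the exception being the highest male of all, SI mouse 8. The Log2FC was -0.19 (SE 0.06, adjusted p = 0.3 in edgeR) and reached -0.36 without surrogate variables. Without SI males 25, 33 and 39 it was -0.15 with surrogate variables and -0.10 without. SI males 25, 33 and 39 averaged 6858 normalised counts and the other 4 SI males 11100 ± 1733.

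Cdh24 was at 417, 471 and 530 normalised counts in GH males and at 395, 513 and 625 in SI males. The groups overlapped, with 3 of 7 SI males above the highest GH male and 1 below the lowest. The Log2FC of 0.23 (SE 0.09, adjusted p = 0.33 in edgeR) had the sign seen in females. Iyd, at 103, 119 and 160 in GH males and at 111, 132 and 194 in SI males, had a Log2FC of 0.16 (SE 0.14, adjusted p = 0.64). Without SI males 25, 33 and 39 the Log2FC was 0.26 for Cdh24 and 0.20 for Iyd. The other 4 SI males had 549 ± 75.8 normalised counts of Cdh24 and 134 ± 26.8 of Iyd, and the 3 averaged 456 and 169.

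Wfs1 lay at 4124, 5426 and 7954 normalised counts in GH males and at 3435, 5129 and 7733 in SI males. The ranges nearly coincided, yet the Log2FC was 0.22 with surrogate variables (SE 0.10, adjusted p = 0.369 in edgeR) and -0.08 without. SI males 25, 33 and 39 averaged 3792 normalised counts of Wfs1 and the other 4 SI males 6638 ± 1283. Without the 3 mice the Log2FC of Wfs1 was 0.31 with surrogate variables.

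Bok and Ociad2 were highest, not lowest, in the 3 males that stand apart. Bok lay at 2818, 3972 and 4441 normalised counts in GH males and at 3491, 4303 and 6245 in SI males, the 3 highest being 25, 33 and 39. Ociad2 lay at 3901, 4549 and 4905 in GH males and at 3896, 4704 and 6887 in SI males, with the same 3 mice on top. Their Log2FC was 0.05 and -0.06 with surrogate variables (adjusted p = 0.766 and 0.672 in edgeR) but 0.32 and 0.20 without, so that the male values of this pair rested on how these mice were treated. The other 4 SI males had 3961 ± 344 normalised counts of Bok and 4183 ± 359 of Ociad2, against 3833 ± 528 and 4494 ± 316 in GH males. Without the 3 mice the Log2FC was -0.03 for Bok and -0.08 for Ociad2.

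The remaining CA1 markers spread widely in SI males. Pou3f1 lay at 3681, 5512 and 7663 normalised counts in SI males against 4032, 4559 and 5591 in GH males, with a Log2FC of 0.22 (SE 0.13, adjusted p = 0.465 in edgeR). Fibcd1 had a Log2FC of 0.11 and Man1a one of 0.04, and Man1a turned to -0.20 without surrogate variables. Without SI males 25, 33 and 39 the Log2FC was 0.16 for Pou3f1, 0.19 for Fibcd1 and 0.18 for Man1a. The 3 averaged 6662 normalised counts of Pou3f1, 5539 of Fibcd1 and 1480 of Man1a, and 2 of them lay above the highest GH male in Pou3f1. The other 4 SI males had 5210 ± 1465, 7128 ± 1421 and 2164 ± 515. None of the 10 markers had SI and GH males that did not overlap, which was so for 9 genes (0.0568%).

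The count of calls in males changed greatly in 1 fit with a mouse left out. Without SI male 27, 2414 genes were called by edgeR in place of 0, where 15833 genes were tested with all males. Read beside that count, the calls held Nectin3 (Log2FC -0.30, adjusted p = 0.00892), Mpped1 (-0.22, adjusted p = 0.0194) and Pou3f1 (0.37, adjusted p = 0.0204). Surrogate variables were estimated anew in this fit, and the cause of the change was not tested. In the 14 other fits with 1 male left out 0 genes were called. Without SI males 25, 33 and 39 no marker was called, with surrogate variables or without.

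**Figure D3:**
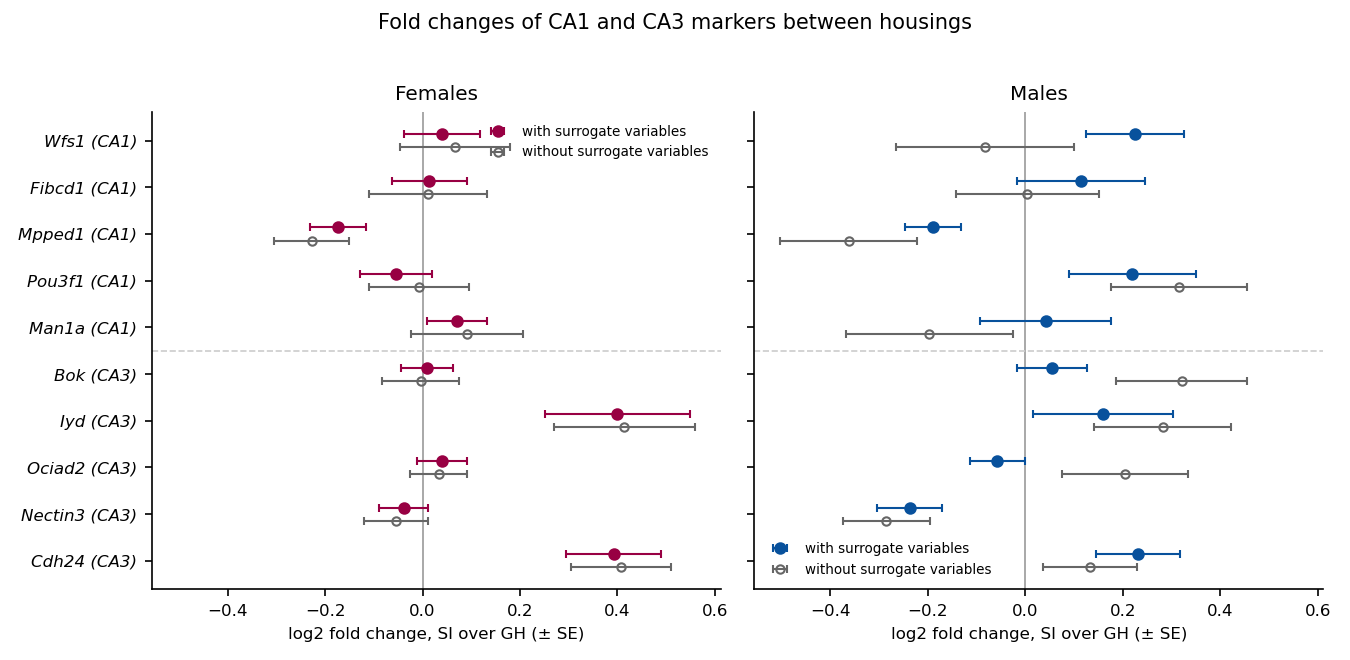
Log2FC of SI over GH with its SE for each marker, females on the left and males on the right, with surrogate variables (filled) and without (open). In females the pairs of points lie close, and in males Wfs1, Man1a, Bok and Ociad2 lie far apart.

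Whether the difference between housings itself differed between the sexes was tested as an interaction in 1 fit of all 30 mice. None of the 10 markers had even an unadjusted p under 0.05, and 0 of 16391 genes (0%) were called by edgeR, with 1226 at an unadjusted p under 0.05 and 8 called by DESeq2. The largest estimates were 0.22 for Iyd (SE 0.20) and -0.19 for Pou3f1 (SE 0.16). Cdh24 was at 0.18, Nectin3 at 0.12, Ociad2 at 0.09, Mpped1 at 0.03, Bok at -0.02, Man1a at -0.04, Wfs1 at -0.16 and Fibcd1 at -0.16. The call for Cdh24 in females and its absence in males is therefore not shown to be a difference between the sexes.

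The sexes were also compared under GH. Cdh24 was the only marker called and was lower in GH females than in GH males, at 383 ± 39.3 against 467 ± 37.7 normalised counts (Log2FC -0.33, SE 0.09, adjusted p = 0.0321 in edgeR), where 1035 of 16391 genes (6.31%) were called. These GH females are the mice that the SI females were compared with, so the 2 results for Cdh24 share a group. SI females, at 508 ± 85.6, were at about the level of SI males, at 509 ± 80.7. The call for Cdh24 was lost in 6 of 12 alternative fits, those without surrogate variables, with 1, with the position digit, with at least 10 counts in every sample and both without SI males 25, 33 and 39, and in 8 of the 30 fits with 1 mouse left out (GH females 47, 48, 54 and 71, SI female 73 and GH males 3, 22 and 23), at an adjusted p of 0.0534 to 0.0984 in the latter. Wfs1 was at -0.20 (SE 0.09, adjusted p = 0.18) and the other 8 markers at -0.22 for Iyd to 0.07 for Mpped1.

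Between the fields, the mean log2 CPM of the 5 CA1 markers was set against that of the 5 CA3 markers within each mouse, as a description without a test. These values were not adjusted for surrogate variables. The group mean of the difference was lower under SI in both sexes. In the male fit with surrogate variables the order was the other way, with a median Log2FC of 0.11 for CA1 markers and 0.05 for CA3 markers. In females it lay at 2.12, 2.34 and 2.64 under GH and at 1.97, 2.17 and 2.49 under SI, with means of 2.35 ± 0.21 and 2.17 ± 0.19. In males it lay at 2.07, 2.24 and 2.87 under GH and at 1.67, 1.97 and 2.54 under SI, with means of 2.32 ± 0.26 and 2.11 ± 0.37. The groups overlapped over most of their range in both sexes.

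The 2 terms of this difference did not behave alike. In females the CA1 mean was 6.86 ± 0.13 under GH and 6.85 ± 0.18 under SI, while the CA3 mean was 4.51 ± 0.11 and 4.67 ± 0.07, with Cdh24 and Iyd holding the largest Log2FC of its 5 genes. In males the CA1 mean was 6.93 ± 0.19 under GH and 6.83 ± 0.27 under SI, and the CA3 mean 4.61 ± 0.10 and 4.72 ± 0.14. SI males 25, 33 and 39 held the lowest 3 differences of the males, and the other 4 SI males had 2.36 ± 0.26, above the GH mean. The lower male mean thus rested on those 3 mice.

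**Figure D4:**
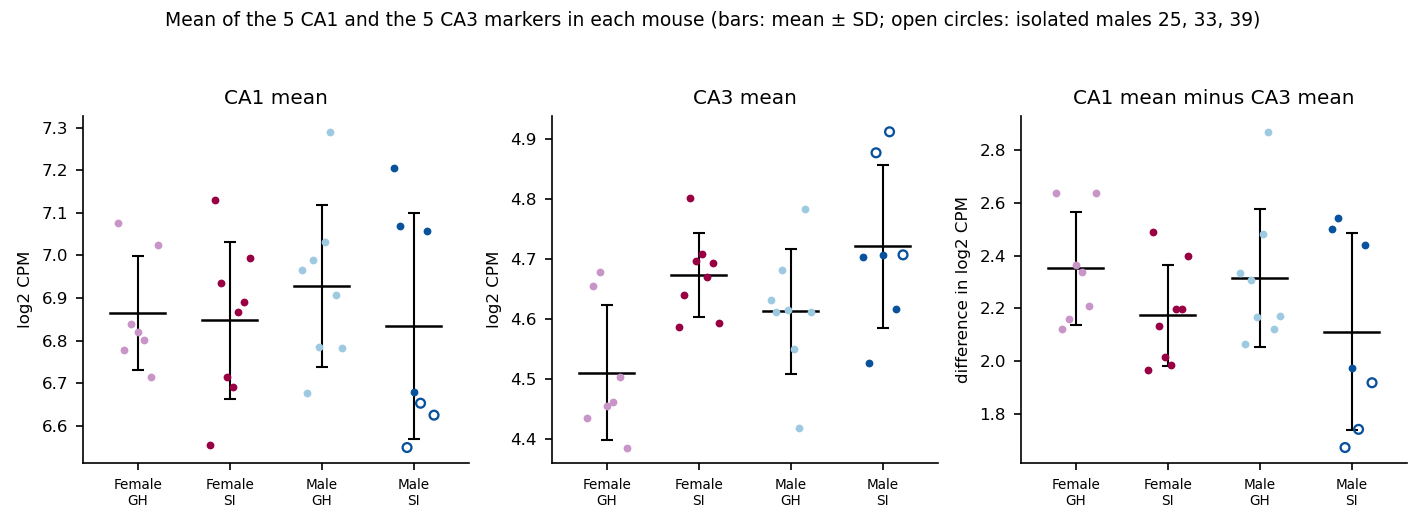
Mean log2 CPM of the 5 CA1 markers, of the 5 CA3 markers and the difference of both in each mouse. Each point is 1 mouse, lines and bars are mean ± SD, and open circles are SI males 25, 33 and 39, which have the lowest differences of the males.

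Markers of a field need not vary together between mice. After each group's mean was removed, 45 pairs were correlated over 30 mice, with permutation tests of 100000 resamples, two-sided and adjusted over the 45 pairs, and again over the 27 mice without SI males 25, 33 and 39. Within a pair both values come from the same library, so its composition and depth are shared.

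The CA1 markers went together for the most part. Of 10 pairs 9 were positive with a median r of 0.42, or 0.48 in the 27 mice, and 5 were significant in each case. Wfs1 with Man1a had r = 0.71 (rho = 0.65, permutation p = 1e-05, the smallest these resamples can give, adjusted p = 0.000112) over 30 mice and r = 0.61 (adjusted p = 0.00756) over 27. Fibcd1 with Man1a had r = 0.71 over 30 mice (rho = 0.72, adjusted p = 0.000225) and r = 0.71 over 27 (adjusted p = 0.0018). Leaving out the 2 mice farthest from the median of the first gene gave r = 0.63 and 0.67.

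Mpped1 and Pou3f1 were the exceptions, and both changed with the 3 males. Wfs1 with Mpped1 had r = 0.55 over 30 mice (rho = 0.48, adjusted p = 0.00582) and 0.05 over 27. Wfs1 with Pou3f1 had r = 0.12 over 30 mice (adjusted p = 0.594) and 0.60 over 27 (rho = 0.53, adjusted p = 0.00855). Mpped1 with Pou3f1 was the only negative CA1 pair, at -0.38 over 30 mice and -0.04 over 27.

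The CA3 markers were divided. Of 10 pairs 5 were positive and 5 negative, with a median r of -0.06 over 30 mice and 0.02 over 27. Bok, Iyd and Ociad2 formed the 3 significant positive pairs over 30 mice, and no CA3 pair was significant over 27. These 3 had the shortest transcripts of the 10 markers, at 1432, 1579 and 2155 bases, against 2728 (Cdh24) to 9116 (Nectin3) for the others. The part of transcript length in correlations within or across the fields was not tested. Bok with Ociad2 was the highest at r = 0.74 over 30 mice (rho = 0.66, adjusted p = 0.00018) and 0.43 over 27, and r was 0.09 after removal of surrogate variables. Iyd with Ociad2 had r = 0.47 (rho = 0.47, adjusted p = 0.0258) over 30 mice and 0.34 over 27. Bok with Iyd had r = 0.43 (rho = 0.40, adjusted p = 0.0458) over 30 mice and 0.27 over 27. Cdh24 was negative with Ociad2 over 30 mice (r = -0.43, rho = -0.47, adjusted p = 0.045) and -0.28 over 27. After removal of surrogate variables the 3 highest CA3 pairs included Nectin3. They were Bok with Nectin3 at r = 0.60 (-0.33 before), Iyd with Nectin3 at 0.54 (0.19 before) and Bok with Iyd at 0.49. Iyd with Ociad2 was then at 0.25 and Ociad2 with Cdh24 at -0.08.

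Across the fields, 12 of 25 pairs were positive and 13 negative, but the 9 significant negative pairs all held Bok, Ociad2 or Iyd. Over 27 mice 4 negative pairs were significant, and Mpped1 with Ociad2 was at -0.69 over 30 mice and -0.0077 over 27. The strongest was Man1a with Bok, at r = -0.86 over 30 mice (rho = -0.84, permutation p = 1e-05, adjusted p = 0.000112), -0.83 over 27 (adjusted p = 0.00045), -0.82 in females and -0.87 in males. Wfs1 with Bok had r = -0.81 over 30 mice (rho = -0.74, adjusted p = 0.000112) and -0.67 over 27 (adjusted p = 0.0018). Wfs1 with Ociad2 had r = -0.78 over 30 mice (rho = -0.74, adjusted p = 0.000112) and -0.57 over 27 (adjusted p = 0.0112). Without the 2 mice farthest from the median of the first gene these were -0.82, -0.76 and -0.72. After removal of surrogate variables they were -0.63, -0.55 and -0.21, so that of these 3 Wfs1 with Ociad2 moved most.

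Cdh24 went with a CA1 marker instead. Wfs1 with Cdh24 was the only significant positive pair across the fields, at r = 0.57 over 30 mice (rho = 0.57, adjusted p = 0.00519) and 0.53 without the 2 farthest mice. Over 27 mice r was 0.48 and no longer passed (permutation test, adjusted p = 0.0553), while rho was 0.51 and passed (permutation test, adjusted p = 0.0331).

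**Figure D5:**
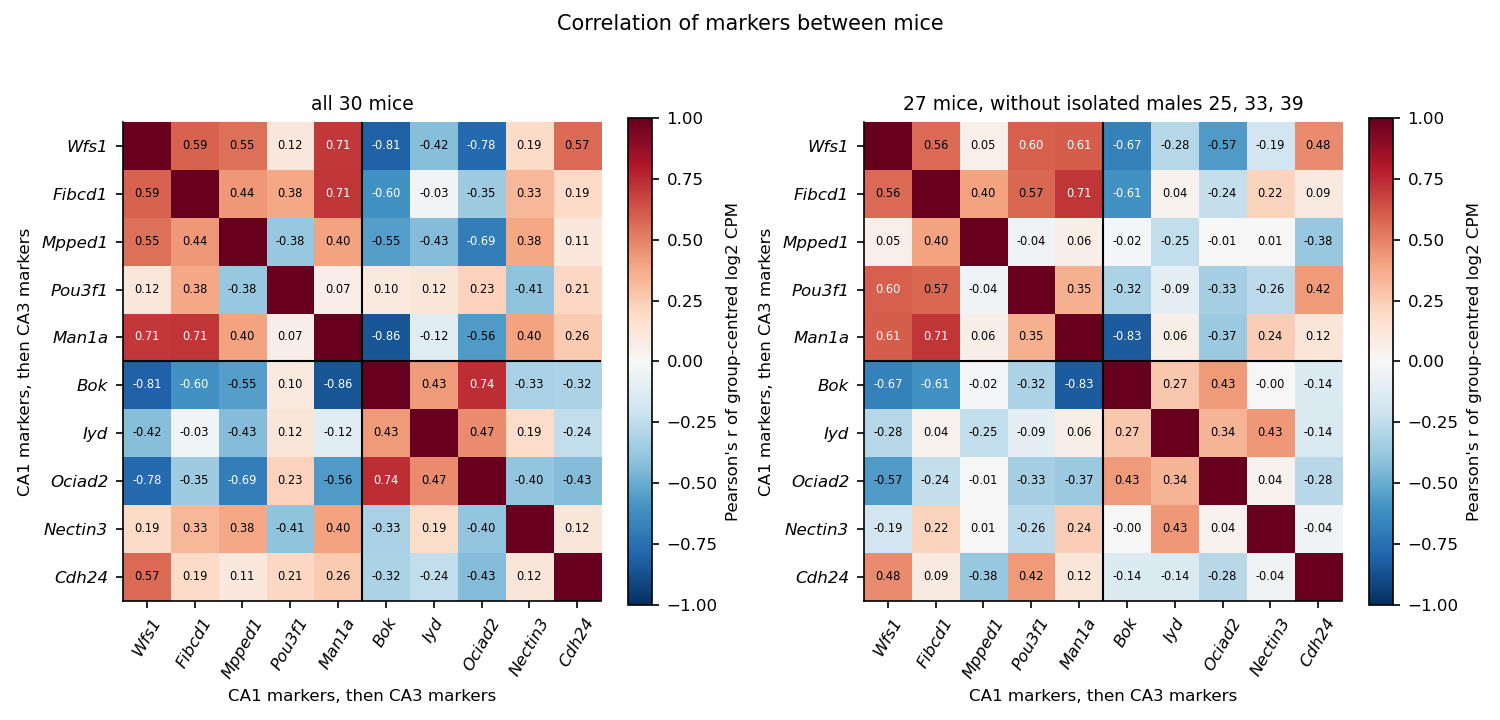
Pearson's r between markers of log2 CPM after removal of group means, over 30 mice on the left and over 27 mice without SI males 25, 33 and 39 on the right. Black lines divide CA1 from CA3 markers. Bok is negative with Wfs1, Fibcd1 and Man1a in both panels. Correlations of Mpped1 with Wfs1, Pou3f1, Man1a, Bok, Iyd, Ociad2 and Nectin3 are weaker in the right panel. Mpped1 with Fibcd1 is similar in both (0.44 on the left, 0.40 on the right), and Mpped1 with Cdh24 turns from 0.11 to -0.38.

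Genes outside the 10 that tracked the mean of a field's markers most closely were ranked over 15770 genes by r over 30 mice, as a description. For CA1 these included Sez6, a membrane protein of neurons linked to seizures (r = 0.93), Ptprn, a protein of dense-core vesicles (0.92), Lrrn2 (0.92) and Usp20, a deubiquitinase (0.91). Over 27 mice these 4 stood at 0.86 to 0.89. For CA3 they were Gyg, which primes glycogen synthesis (0.71), Olfr731 (0.71), Rnf182 (0.71), Pxdc1 (0.69) and Rarres1 (0.69), at 0.60 to 0.71 over 27 mice. The nearest neighbours of the CA3 mean were thus less near than those of the CA1 mean.

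Other known markers did not sort by the field they mark. Of 4 other CA3 markers, the kainate receptor subunit gene Grik4, the pentraxin gene Nptx1, Cpne4 and Dkk3, all 4 went with the CA1 mean (r = 0.52 to 0.74), and with the CA3 mean at -0.30 to 0.18. Among the other CA1 markers, Ccn3 was at 0.55 with the CA1 mean, but Spink8 was at -0.74. The 4 genes of pyramidal neurons in general had a median r of 0.32 with the CA1 mean, from 0.16 for Neurod2 to 0.80 for the vesicular glutamate transporter gene Slc17a7.

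These 8 other field markers were tested for housing as well, and none was a DEG in either sex. The median Log2FC of the other CA1 markers was -0.02 among females and 0.0012 among males, and that of the other CA3 markers was 0.07 and 0.02. Nptx1 was the only 1 of the 8 with an unadjusted p under 0.05, in females, at a Log2FC of 0.17. The 4 shared pyramidal genes were mixed in females, with a median Log2FC of 0.09. Camk2a, the kinase subunit of excitatory synapses, fell in SI females (Log2FC -0.24, adjusted p = 0.0197 in edgeR), and it was at -0.25 in males without passing. The transcription factor genes Neurod6 and Neurod2 were at 0.21 and 0.17 in females without passing, and Slc17a7 was at 0.00012.

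Some markers of other cell types were called in the female edgeR fit with surrogate variables, where 624 of 16026 genes (3.89%) were called. In edgeR, 0 genes were called in females without surrogate variables or with the position digit, and 0 in males. The 5 astrocyte markers all had estimates below 0 in females, with a median Log2FC of -0.21 and 2 of 5 called, and their summed CPM was 1361 to 1975 in SI against 1723 to 2220 in GH females. In males all 5 were below 0 as well, with a median of -0.21 and 0 called. The 5 oligodendrocyte markers had a median of -0.08 in females with 0 called, at 5182 to 8384 against 5982 to 9162 CPM. Of 5 dentate granule cell markers all 5 had positive estimates in females (median 0.19), with Lct called at 0.42 by edgeR. All 4 endothelial markers had positive estimates in females (median 0.12), with Flt1 called at 0.14 (adjusted p = 0.0496 in edgeR). Of 6 interneuron markers 5 had positive estimates in females (median 0.09), with Npy called at 0.15 (adjusted p = 0.035 in edgeR). The part of these cell types in the value of Cdh24 was not tested.

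Between mice, all 5 astrocyte markers, 4 of 5 oligodendrocyte markers and 4 of 5 microglial markers were negative with the CA1 mean (median r of -0.42, -0.65 and -0.57). In SI male 25 the summed oligodendrocyte markers reached 10040 CPM and the microglial markers 408 CPM, the highest of all groups. Its summed interneuron (940 CPM), CA2 (465 CPM) and endothelial markers (252 CPM) were also the highest of all groups. The other CA3 markers (643 CPM) and the shared pyramidal genes (3779 CPM) were the lowest of all groups in this mouse. It also had the lowest Wfs1, Mpped1 and Man1a of the males. The markers of the thalamus, which lies outside the hippocampus, had a median Log2FC of 0.67 in males with 0 of 4 called. They were at 63.2 to 152 CPM in SI against 59.7 to 77.4 in GH males. In females their median Log2FC was 0.08 with 0 of 4 called, at 72.6 to 174 CPM in SI against 64.5 to 115 in GH females. The highest value was that of SI female 41. The choroid plexus markers ranged from 38.7 to 4145 CPM in SI males and from 40.2 to 2233 in GH males. In females they ranged from 1562 to 3980 CPM under SI and from 856 to 4902 under GH. Markers of tissue outside the hippocampus thus varied between libraries of both housings. Whether such tissue was present in the samples was not tested. The part of all these cell types and tissues in the CA1 and CA3 values was not tested either.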

How the data were processed

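RNA of whole hippocampus was sequenced as polyA-selected, paired-end libraries, 1 per mouse. Per the labels and the methods of the study, Trimmomatic 0.39 and then Salmon 1.8.0 were run by the authors on a build the labels name as GRCm39 (mm39). The deposited values are unnormalized counts, whole numbers for each gene in each of the 30 mice. How transcript estimates became whole numbers is not given in the sources used here. Since Salmon assigns shared reads by estimation, genes with similar copies carry that uncertainty. All 30 columns matched a mouse by name.

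Counts of 17477 genes were analysed in R 4.3.3 with edgeR 4.0.16: filterByExpr (minimum count 10), TMM normalization, surrogate variables of svaseq (sva 3.50.0; 3 in females, 2 in males, 4 in all mice) and glmQLFTest, with Benjamini-Hochberg adjustment over all genes tested and a threshold of 0.05. CPM values (counts scaled to library size) were taken to log2 with a prior count of 2. Lengths are from GENCODE vM1 and promoters from RefSeq GRCm38.p6, neither being the authors' annotation, so coordinates are given only for the promoters, on the build of RefSeq. All 10 markers are named in every comparison, and for each field's mean the 5 genes with the highest r. Some items that these rules would name are not reported here. The steps were tested on simulated data. Alternatives were DESeq2 1.42.0, 0, 1 or 5 surrogate variables, the position digit, and limma-voom (limma 3.58.1) with quality weights. Further ones were other size factors and filters, removal of length and GC trends, 1 fit of all groups, and leaving out single mice or SI males 25, 33 and 39. Limma-voom was fitted without surrogate variables, while other fits described as without them used edgeR. The genes, marker lists and alternatives were chosen with earlier results of these data known, and the fits without those 3 males and without surrogate variables, and the male correlations without them, were added after the data were seen.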

Additional observations from a re-analysis of the deposited data

How the results depend on the processing

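No paired analysis was possible because each mouse carries its own number and the groups share none. Signs are compared only for estimates more than 1 SE from 0, since 17 estimates nearer to 0 changed sign in 42 of 201 alternative fits and in 43 of 375 fits with 1 mouse left out, against 10 of 279 and 0 of 525 for the other 23. Where a value below moved, the cause was not tested.

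CA1 minus CA3, as SI less GH in SD between mice, was -0.89 in females and -0.64 in males. It was not computed with surrogate variables. It kept its sign in females in every alternative that was run. When single mice were left out it lay between -1.21 and -0.69 in females and -0.91 and -0.43 in males. Leaving out Cdh24 or Mpped1 from the markers gave -0.51 and -0.55 in females, and leaving out Mpped1 gave -0.38 in males. Without SI males 25, 33 and 39 it turned to 0.19 in males. The median r of CA3 pairs, -0.06 over 30 mice, was 0.0157 without those males, 0.0428 in females alone, 0.15 after removal of surrogate variables and 0.22 in males without the 3.

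In females, the 624 genes and 1 marker called became 1229 and 2 in DESeq2, and 1492 and 2 after removal of length and GC trends. They became 958 genes with 5 surrogate variables, and 0 and 0 in edgeR both without surrogate variables and with the position digit. In limma-voom, also without surrogate variables, 838 genes and 1 marker were called. Leaving out single mice gave 88 (without SI 68) to 1373 genes (without GH 46) and 0 to 1 marker. In males, 0 genes became 24 in DESeq2, 1 with 5 surrogate variables and 0 to 2414 with single mice left out, with 0 to 3 markers, the highest without SI 27. For the interaction, 0 genes became 8 in DESeq2 and 0 to 385 with single mice left out (385 without SI male 7, 281 without SI male 27). For females against males under GH, 1035 genes became 1902 in DESeq2, 1638 with 5 surrogate variables, 184 with 1, 16 without, 9 with the position digit, 647 unfiltered, 418 with at least 10 counts in every sample, 150 without SI males 25, 33 and 39 and 58 without both these and surrogate variables. The 1 marker called there became 0 without surrogate variables, with 1, with the position digit, with at least 10 counts in every sample and in both fits without the 3 males. Single mice left out gave 112 (without GH male 3) to 2654 genes (without GH male 24) and 0 to 1 marker.

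Without surrogate variables and with the position digit, Wfs1 turned to -0.083 and -0.16 in males and to 0.15 and 0.24 in the interaction, and Ociad2 to 0.20 and 0.13 in males and to -0.17 and -0.15 in the interaction. In limma-voom the interaction of Wfs1 was 0.071, and Pou3f1 between the sexes turned to 0.00086 with at least 10 counts in every sample. The fits without the 3 males and without surrogate variables, and the male correlations without them, were chosen after seeing the data.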
